A study of Rattus norvegicus with 12 samples.

Results

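Kidneys of caloric-restricted (CR) rats aged 24 months were compared with kidneys of young rats aged 4 months, gene by gene, on the 8 of the series' 12 arrays whose titles place them in these groups, 4 arrays each. Both groups were male rats of an inbred strain that the labels spell Fisher F344, bought from the same ageing colony. The CR rats had been fed 10% less from 10 weeks of age, 25% less from 15 weeks and 40% less from 4 months on, and the young rats had fed ad libitum. Age and diet therefore differ together between the groups and cannot be told apart here, and the remaining 4 arrays, of freely fed rats of 24 months, are not compared here and enter only 1 alternative fit of the closing section. Whole kidney was snap frozen under ketamine and xylazine anaesthesia, and biotin-labelled cRNA from its total RNA was hybridised to CodeLink rat whole genome arrays, 1 colour and 1 sample an array. All gene probes were taken, 33849 an array; 24739 of them (73.1%) gave signal above background on 4 or more arrays and were tested, covering 10863 genes with a symbol.

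The kidney filters plasma in the glomerulus and reclaims most of the filtrate in the proximal tubule, whose apical and basolateral transporters, endocytic receptors and oxidative metabolism define it. The loop of Henle, the distal tubule and the collecting duct then adjust salt, water and acid. When tubules are damaged, their cells switch on a small set of injury genes such as Havcr1 (kidney injury molecule 1), Clu (clusterin) and Spp1 (osteopontin), while fibroblasts lay down matrix and leukocytes enter the interstitium. In male rats, part of the kidney's transport and steroid metabolism also depends on androgens and on the pulsed release of growth hormone.

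Whether the arrays of a group could count as separate samples was checked first. The measure was the spread (the scaled median absolute deviation) of the log2 difference between 2 arrays over 9580 bright probes, set against the limit given by repeat spots of single arrays. CR arrays 1 and 3 differed by a spread of 0.128 and CR arrays 2 and 4 by 0.138, under limits of 0.154 and 0.149. Young arrays 1 and 2 differed by 0.116 and young arrays 3 and 4 by 0.103, under limits of 0.135 and 0.177. These 4 pairs differed by no more than the repeat-spot noise and each was averaged to 1 sample, which left 2 CR samples and 2 young samples, although the study's design text calls the 4 arrays of a group biological replicates. CR arrays 1 and 2 lay just above their limit, at 0.162 against 0.149. The 2 young samples stood apart from each other more than the 2 CR samples did, with spreads of 0.330 to 0.371 between their arrays, and 2471 probes (9.99%) differed at least 2-fold between them, against 57 (0.23%) between the CR samples. Because nothing in the labels shows which animals the paired arrays came from, the p-values below measure the spread between 2 and 2 samples only.

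More of the probes gave signal on the CR arrays. Between 72.5% and 74.8% of gene probes were above background on CR arrays, against 64.2% to 69.9% on young arrays, and the median background-subtracted intensity was 130.1 to 159.2 on CR arrays and 74.1 to 113.9 on young arrays. Neither measure overlapped between the arrays of the groups. An exact permutation test over arrays gave p = 0.0286 for each, the smallest p it can give. That test counts the paired arrays as separate samples, so it does not measure the spread between samples. All intensities below are quantile normalised over the 8 arrays, which removes this difference, with a floor of 7.6 set at the negative control spots. Scaling each array by its median instead moved the median difference of all probes to -0.26 from -0.03 (log2, CR minus young), and moved bright genes further down than dim ones. Whether the difference in signal belongs to the tissue or to the labelling was not tested.

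Of the 24739 probes, 290 (1.17%) passed limma's test over the 4 samples at an adjusted p of 0.05, 220 higher (0.889%) and 70 lower (0.283%) in CR kidney. The fitted difference of every called probe was at least 2-fold, the smallest 1.29 on the log2 scale. Some of these differences rest on young values below background and near the floor. Such probes have only a bound, which can be under 2-fold, such as 1.59-fold for Scd and 1.01-fold for C11h21orf91. With each gene represented by its tested probe of the highest mean, 114 genes were called higher and 35 lower. That is 1.05% and 0.322% of the 10863 genes tested, and no gene had probes called in both directions. Many more probes separated the arrays without passing: the 4 CR arrays lay all above the 4 young arrays for 4469 probes (18.1%) and all below for 5825 (23.5%), or 10294 (41.6%) in either direction, and by gene 2155 (19.8%) and 2586 (23.8%). Paired arrays are not separate samples, so a lack of overlap, here and below, sets only 2 samples against 2. Probes without a group difference can often show it too, and it is not a test. With either CR sample left out, limma called 0 probes in each direction, with 1823 and 1756 probes at an unadjusted p under 0.05; the spread then comes from the 2 young samples alone. With either young sample left out, when the spread comes from the 2 CR samples alone, it called 3155 higher and 2846 lower, or 6227 and 6424, and all 290 probes were among them each time.

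**Figure D1:**
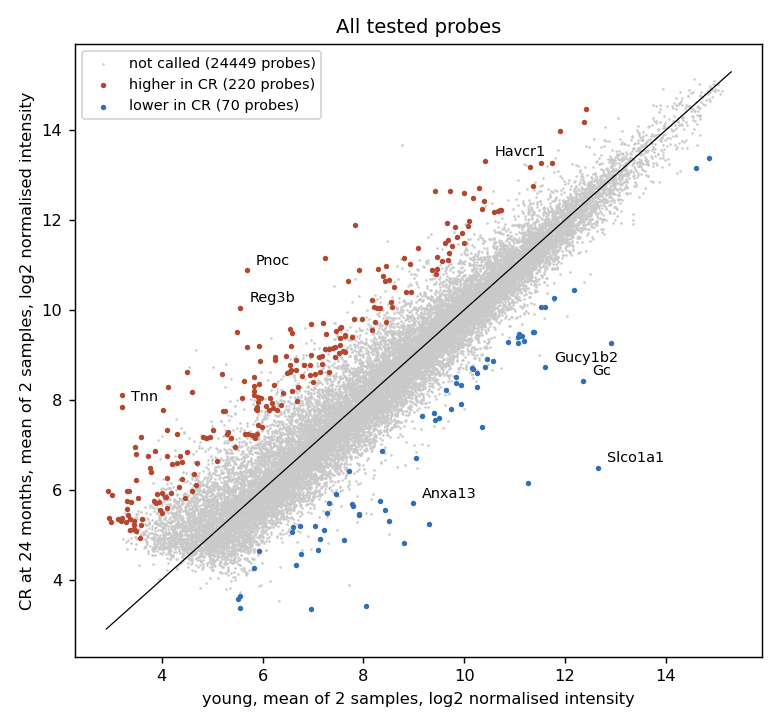
Mean log2 normalised intensity of every tested probe in CR kidney (vertical axis) against young kidney (horizontal axis), each the mean of 2 samples; the line marks equal levels. Red points are the 220 probes called higher in CR kidney and blue points the 70 called lower; Slco1a1, at the lower right, and Pnoc, at the upper left, lie farthest from the line among the named genes.

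The gene with the largest fall in CR kidney was Slco1a1 (probe GE20348, chromosome 4), an organic anion transporter of the proximal tubule brush border that depends on androgens in rodents. Its 4 CR arrays read 89.2, 84.2, 100.6 and 86.6, against 6183, 5496, 6798 and 7406 on the young arrays. The groups were far apart, a log2 difference of -6.16 ± 0.19 (SE, 2 samples each; limma adjusted p = 0.0215), or 71.5-fold. A dimmer second probe of Slco1a1 also had all CR arrays below all young arrays, but its difference of -2.18 was not called (adjusted p = 0.174). Gc, the vitamin D binding protein of plasma (chromosome 14), read 367.9, 345.4, 375.0 and 292.0 on CR arrays, against 5011, 5488, 5377 and 5237 on young arrays, a difference of -3.94 ± 0.17 (adjusted p = 0.0216). Young arrays of both young samples agreed closely for Gc, and the 4 CR arrays lay far below them.

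Of the other large falls, several concerned genes known from epithelia or from other organs. Anxa13, an annexin of polarised epithelia, read 45.0 to 56.9 on CR arrays against 463.0 to 562.2 on young arrays, a log2 difference of -3.29. Gucy1b2, a beta subunit of soluble guanylate cyclase first found in rat kidney, had 445.8, 413.0, 492.6 and 358.7 on CR arrays, against 2935, 3005, 3162 and 3329 on young arrays (-2.87 ± 0.19, adjusted p = 0.0264). Bfsp2, a lens filament protein, differed by -3.21, and Tm4sf20, a membrane protein of the transmembrane 4 L6 family, by -2.89. Tcp11x2 (X chromosome) was above background on none of the 4 CR arrays and on all 4 young arrays, so only a bound can be given, at least 6.88-fold lower in CR kidney. Bcl6, a transcriptional repressor, read 49.1, 63.7 and 42.1 on the 3 CR arrays that measured it, against 288.8 to 350.7 on young arrays (-2.57). A second probe of Bcl6 differed by only -0.41 and was not called. Tex48, Scgb1c1 (a secretoglobin) and Fabp12 (a fatty acid binding protein) differed by -2.34, -2.14 and -2.12. Slc35f1 differed by -2.19, but its CR arrays split by slide series, a grouping inferred from the image names and not given by the labels. It read 44.8 and 40.2 on CR arrays 1 and 2 against 13.8 and 13.1 on CR arrays 3 and 4. It was above background on only 2 of the CR arrays. Its call was lost with only the slide series that holds both groups, that of CR arrays 1 and 2 and all young arrays. It was also lost when CR array 2, 3 or 4 was left out and with the joined sample as a random block. Each CR sample averages 1 array of each series, so a difference between the series does not show in the spread between CR samples.

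The largest rise was that of Pnoc (probe GE20114, chromosome 15), the precursor of the opioid-like peptide nociceptin. CR arrays read 2014, 1907, 1890 and 1769, against 65.7, 61.6, 48.2 and 36.0 on young arrays. All 8 arrays were above background and the groups differed 36.8-fold (5.20 ± 0.25 on the log2 scale, adjusted p = 0.0216). Reg3b, a C-type lectin secreted by injured epithelia, read 1070, 1020, 1102 and 1044 on CR arrays, against 55.3, 62.03, 40.1 and 35.8 on young arrays (4.49 ± 0.26, adjusted p = 0.0229). Tnn (tenascin N, a matrix glycoprotein) was at 220.4 to 255.5 on CR arrays and above background on no young array, at least 7.72-fold higher in CR kidney. Car3, a carbonic anhydrase abundant in fat, muscle and liver, read 340.5 to 457.0 on CR arrays, against 14.2, 16.0, 32.8 and 34.2 on young arrays (4.12 ± 0.42), and only 1 young array was above background. Akr1b7, an aldo-keto reductase, was nearly the same on the 4 CR arrays, 717.0 to 735.3, and ran from 28.0 to 68.8 on young arrays (4.02).

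Matrix and signalling genes filled most of the remaining places. Col24a1, a fibrillar collagen chain, read 3006 to 4423 on CR arrays against 185.4 to 283.8 on young arrays (4.07), while a dim second probe of it differed by 0.26 and was not called. Cthrc1, a collagen repeat protein of remodelling tissue, differed by 3.57, and Ltbp2, a latent TGF-beta binding protein of microfibrils, by 3.27. The cytokine Il24 read 536.6 to 634.0 on CR arrays against 46.7 to 56.1 on young arrays (3.49), with little spread in either group. Ccl21, the chemokine that draws lymphocytes and dendritic cells to lymphatic vessels, had 5615, 6700, 6214 and 7201 on CR arrays, against 761.9, 739.2, 903.9 and 984.5 on young arrays (2.93). Cd44, the hyaluronan receptor, differed by 2.91, as did the chemokine receptor Ccr6.

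**Figure D2:**
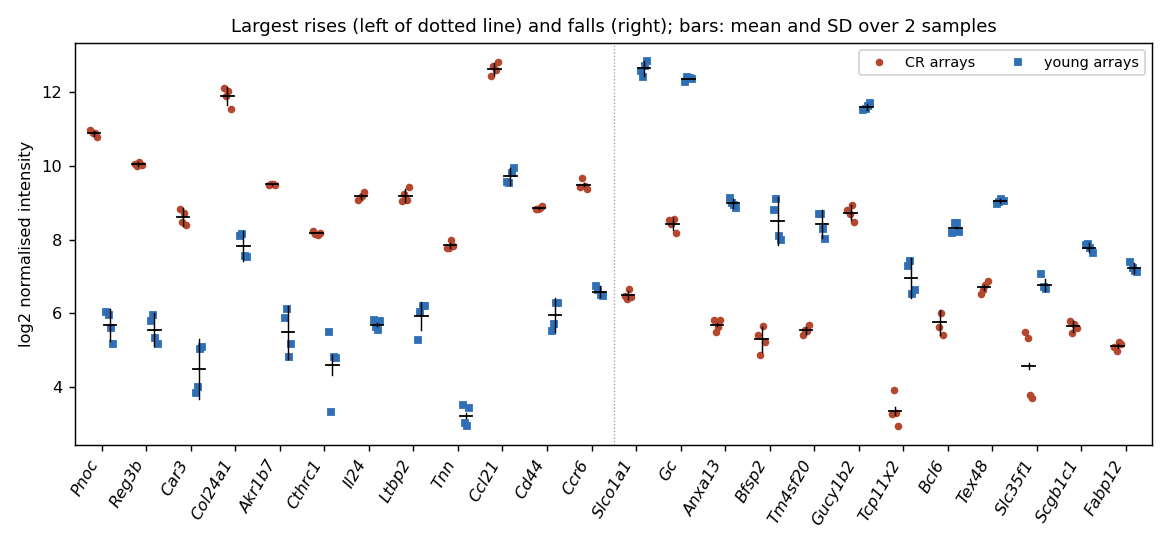
Log2 normalised intensity (vertical axis) on each array of the 12 genes with the largest rises, left of the dotted line, and the 12 with the largest falls, right of it. Red circles are the 4 CR arrays and blue squares the 4 young arrays of each gene; black bars give the mean and SD over the 2 samples of a group. No gene shown has overlapping groups.

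For 3 called genes the promoter is shown because a motif of a regulator known from this tissue or from inflammation was found in it, among 3 motifs searched on both strands after the values were seen. Each was searched as a first and a second part with 1 base of any kind between them: HNF1, a factor of liver and kidney epithelium, as GTTAAT and ATTAA, AP-1 as TGA and TCA, and NF-kB as GGGA and TTTCC. The sequences are RefSeq's, build GRCr8, 250 bases before to 50 after the start of the gene, 5′ to 3′ on the gene's strand, with the match in capitals. The promoter of Gc (chr14:18916005-18916304, plus strand) holds the HNF1 motif, that of Mmp7 (chr8:13132793-13133092, plus strand) the AP-1 motif and that of Ltb (chr20:3634005-3634304, minus strand) the NF-kB motif.
Gc: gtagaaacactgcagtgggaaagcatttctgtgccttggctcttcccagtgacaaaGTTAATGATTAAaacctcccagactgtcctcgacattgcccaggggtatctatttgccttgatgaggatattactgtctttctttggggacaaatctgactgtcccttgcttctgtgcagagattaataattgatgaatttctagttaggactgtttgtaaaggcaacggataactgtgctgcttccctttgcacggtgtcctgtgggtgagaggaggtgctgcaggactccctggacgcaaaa
Mmp7: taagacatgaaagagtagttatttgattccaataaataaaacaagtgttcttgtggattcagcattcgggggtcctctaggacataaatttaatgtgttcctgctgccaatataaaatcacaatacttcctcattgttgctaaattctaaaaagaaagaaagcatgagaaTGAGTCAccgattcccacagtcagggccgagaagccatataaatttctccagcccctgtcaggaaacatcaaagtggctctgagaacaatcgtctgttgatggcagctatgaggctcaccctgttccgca
Ltb: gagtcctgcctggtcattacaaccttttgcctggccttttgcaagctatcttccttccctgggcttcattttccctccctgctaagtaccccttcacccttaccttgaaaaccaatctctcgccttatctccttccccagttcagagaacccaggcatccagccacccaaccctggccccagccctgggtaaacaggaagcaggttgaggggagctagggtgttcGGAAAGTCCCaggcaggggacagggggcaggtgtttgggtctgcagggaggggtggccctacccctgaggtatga
Among all 33469 promoters of the table the HNF1 motif occurs in 0.0448%, AP-1 in 7.33% and NF-kB in 0.362%. Of the 102 genes with any probe called higher that have a promoter there, 6 hold AP-1, 2 hold NF-kB (Ltb and Tnn) and 0 hold HNF1. Of the 28 with any probe called lower, 1 holds HNF1, which is Gc, and 0 hold either of the others. A match is a description of these letters only.

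Some injury genes of the tubule rose in CR kidney. Of 41 tested genes of tubular injury and repair, 8 were called higher and 1 lower, against 1.05% and 0.322% of all genes, and 22 lay with all CR arrays above all young arrays (53.7%, against 19.8% of all genes). Their median difference was 0.95, against -0.01 over all genes. Havcr1, shed by damaged proximal tubules and a gene named by the study itself, read 9714, 10006, 10137 and 10765 on CR arrays, against 1696, 1709, 1126 and 1087 on young arrays (2.89 ± 0.26, adjusted p = 0.0334). The CR arrays lay close together and the 2 young samples apart. Havcr1's call did not hold under array median scaling, where the difference was 2.27 (adjusted p = 0.0670), nor for a second probe (1.65, adjusted p = 0.0955).

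Clu, a secreted chaperone, had 5631, 5954, 5356 and 6083 on CR arrays, against 1131, 1125, 1139 and 1212 on young arrays (2.32 ± 0.16). Reg3g, a close relative of Reg3b, was above background on no young array and at least 5.39-fold higher in CR kidney. It passed the filter on dim probes only through the CR arrays, and the counts of the injury list include it. Probes for such near relatives may share target RNA, which was not tested. The copper oxidase Cp (2.03), the protease inhibitor Timp1 (1.88) and the protease Mmp7 (1.54), which is made by injured tubules, were also called. Mmp7, also named by the study, read 172.4, 164.0, 176.7 and 184.5 on CR arrays, against 41.1, 73.2 and 65.2 on the 3 young arrays that measured it. Cldn7, a tight junction claudin and the third such gene, did not pass: its CR arrays read 133.5 to 165.5 and its young arrays 89.2 to 139.2, which overlap (0.34 ± 0.22, adjusted p = 0.387). Tff3, a trefoil peptide of epithelial repair, went the other way. It read 9626 to 11736 on CR arrays while all 4 young arrays were saturated at 27626 to 31696, so that by this probe it was at least 2.82-fold lower in CR kidney. A second Tff3 probe, saturated on 1 young array, was also called lower, by -1.44 or 2.71-fold.

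Spp1 had the largest difference of any injury gene, 12513, 12761, 12851 and 13706 on CR arrays, against 191.4, 220.0, 910.6 and 953.9 on young arrays, but the young samples stood far apart from each other and it was not called (4.89 ± 0.73, adjusted p = 0.0629). Cd24, a surface protein of regenerating tubule cells (2.38), and Lcn2, the lipocalin NGAL (2.06), likewise had no overlap and no call. Early response genes sat on the other side: Fos, Jun, Egr1 and the EGF-family ligand Areg differed by -0.56, -0.57, -0.68 and -0.96, each without overlap and without a call.

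Several genes of the interstitial matrix rose as well. Of 55 tested genes of fibroblasts, pericytes and interstitial matrix, 9 were called higher and 1 lower, 38 (69.1%, against 19.8% of all genes) had all CR arrays above all young arrays, and the median was 0.87. Tnc (tenascin C, a matrix protein of wounds) read 6325, 7124, 6731 and 6542 on CR arrays, against 1297, 1278, 1200 and 1228 on young arrays (2.42 ± 0.16, adjusted p = 0.0264). Col8a1, a short-chain collagen, and Col15a1, a collagen next to basement membranes, differed by 2.37 and 2.36. Mgp (matrix Gla protein, which restrains calcification) differed by 2.06 and was bright in both groups, as were Fn1 (fibronectin, 1.90), Timp1 and the filament protein Vim (vimentin, 1.81), while Fbln1 (fibulin 1) differed by 1.72.

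Periostin (Postn), a matrix protein of fibrosis, read 211.9, 182.9, 197.5 and 169.9 on CR arrays, against 17.7, 9.82, 33.0 and 25.6 on young arrays, and just missed the threshold (3.28 ± 0.41, adjusted p = 0.0504). Mmp9, the gelatinase, was the called member that fell, at 302.1 to 336.4 on CR arrays against 855.5 to 1101 on young arrays (-1.61 ± 0.18). Among 17 basement membrane genes 0 were called. Their chains did not differ together: Col4a1 and Col4a2 differed by 0.89 and 2.47 and the adult glomerular chains Col4a3 and Col4a4 by -0.66 and -0.74, all 4 without overlap. The median of that list, 0.30, turned to -0.11 under array median scaling.

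Markers of leukocytes formed the other broad group. These are bulk samples, in which more cells of a type and more RNA per cell cannot be told apart. Of all genes tested, 1.05% were called higher and 0.322% lower. All CR arrays lay above all young arrays for 19.8% of them and below for 23.8%. The counts of this and later lists stand against these shares. Of 35 tested genes of macrophages and myeloid cells, 7 were called higher and 0 lower. All CR arrays lay above all young arrays for 31 (88.6%) of these myeloid genes, and their median was 1.32. Their summed intensity was 87870 to 93030 on CR arrays and 41200 to 42310 on young arrays. Cd37, a tetraspanin, read 763.9, 924.4, 741.8 and 940.1 on CR arrays, against 133.6, 100.5, 188.0 and 188.3 on young arrays (2.50). Gpnmb, a glycoprotein of macrophages that take up debris, differed by 2.28, and Ptprc, the pan-leukocyte antigen CD45, by 2.08. Ptprc and other members, Cd37 among them, are shared with lymphocytes, so the counts of this list do not mark myeloid cells alone. Mrc1, the mannose receptor, was above background on no young array and at least 2.10-fold higher in CR kidney. Mrc1 passed the filter on dim probes only through the CR arrays, and the counts of this list include it. Cd53 (1.78), C1qb (1.76) and Lcp1 (1.54) were the other called members. Lyz2, lysozyme, read 3585, 2929, 2670 and 2718 on CR arrays, against 216.9, 233.7, 552.7 and 552.3 on young arrays, without a call (3.07 ± 0.45, adjusted p = 0.0617). Not every marker differed: Cd163, a scavenger receptor, stood at -0.0017 and Itgam, the integrin CD11b, at -0.28.

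Lymphocyte markers were in the same position. Of 27 tested genes of T and natural killer cells, 4 were called higher and 0 lower, and the median was 1.36. All CR arrays lay above all young arrays for 20 (74.1%, against 19.8% of all genes). Lck, the T cell receptor kinase, read 503.3, 480.1, 480.9 and 536.2 on CR arrays, against 85.3, 70.4, 101.8 and 99.2 on young arrays (2.50 ± 0.20, adjusted p = 0.0312). Prf1, perforin, differed by 1.82, Klrd1, a natural killer receptor, by 1.60 and Cd7 by 1.49. The receptor chains Cd3g and Cd3d differed by 1.97 and 1.73 without overlap and without a call. Gzmb went both ways by probe: its representing probe differed by -0.93 without a call, and another was called, at least 3.90-fold higher, with 109.4 to 128.4 on CR arrays and no young array above background.

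Of the 25 listed genes of B and plasma cells only 9 were tested; 5 of those 9 were called higher and 0 lower, and 7 had no overlap. Cd79b, the signalling chain of the B cell receptor, read 1787, 1976, 1911 and 2059 on CR arrays, against 331.4, 316.0, 297.1 and 310.9 on young arrays (2.62 ± 0.16). The groups lay far apart and hardly varied within themselves. Cd22, a B cell lectin, differed by 2.23 and Jchain, which joins secreted antibodies, by 1.97. Ms4a1 (CD20) and Cr2 (CD21) were above background on no young array and at least 1.30-fold and 1.76-fold higher in CR kidney. Several listed genes passed the filter on dim probes only through the CR arrays, so the counts of this list describe the members tested and not the whole list.

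**Figure D3:**
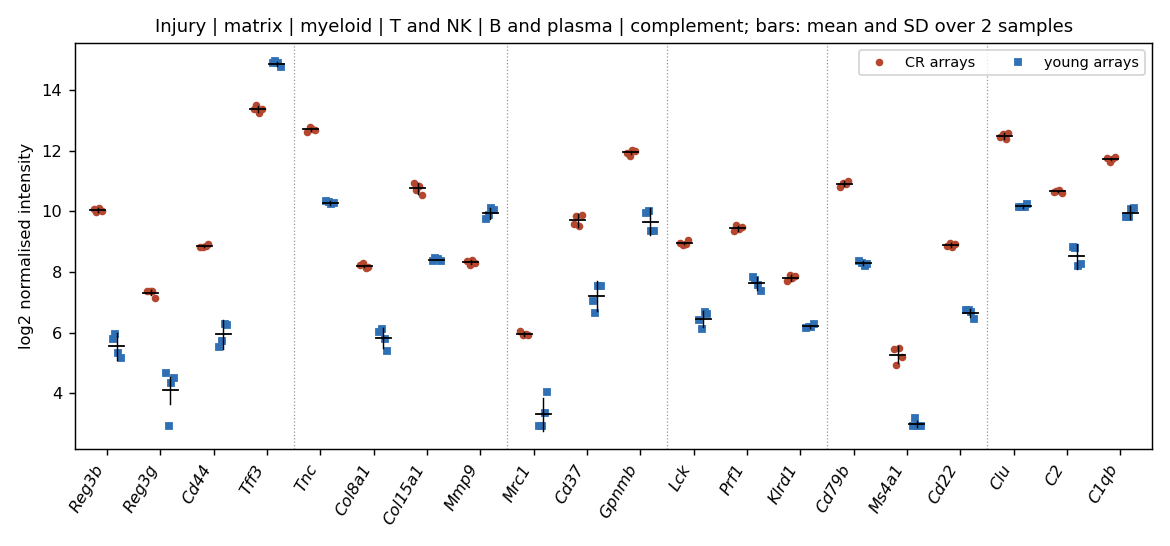
Log2 normalised intensity (vertical axis) on each array of the named called genes of 6 groups, divided by dotted lines. Red circles are the 4 CR arrays and blue squares the 4 young arrays; black bars give the mean and SD over the 2 samples of a group. Tff3 and Mmp9 are the 2 genes lower in CR kidney.

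Antigen presentation differed by smaller steps. Of 16 MHC class II and related genes 0 were called, and the median was 1.12. All CR arrays lay above all young arrays for 11 (68.8%, against 19.8% of all genes) and below for 0. RT1-Bb, a class II beta chain, read 73.8, 122.7, 59.95 and 117.1 on CR arrays, against 7.65, 9.49, 11.6 and 37.8 on young arrays (2.74 ± 0.53, adjusted p = 0.0846). Of 14 genes of MHC class I and the immunoproteasome, 12 (85.7%) had no overlap, all with CR higher, and 1 was called, the interferon-induced proteasome subunit Psmb9 (1.49 ± 0.16), at 2612 to 3189 on CR arrays against 910.8 to 1084 on young arrays. Of 30 interferon response genes 0 were called, with a median of 0.74. All CR arrays lay above all young arrays for 21 (70%, against 19.8% of all genes). Igtp, an interferon-induced GTPase without a call, read 1163, 1246, 1168 and 1255 on CR arrays, against 144.5, 131.5, 730.8 and 668.9 on young arrays, where the young samples stood far apart (1.96 ± 0.78, adjusted p = 0.224).

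Complement and cytokines added further called genes. Of 25 complement genes, 3 were called higher and 0 lower, against 1.05% and 0.322% of all genes. All CR arrays lay above all young arrays for 15 (60%, against 19.8% of all genes). C2, a protease of the classical pathway, read 1598, 1630, 1669 and 1562 on CR arrays, against 449.5, 444.1, 294.2 and 304.7 on young arrays (2.14 ± 0.24), and C1qb, a chain of the recognition protein C1q, 3138 to 3511 on CR arrays against 898.8 to 1116 on young arrays (1.76); Clu, an inhibitor of the terminal complex, is the third. The regulator Cfi differed by 2.55 without a call (adjusted p = 0.0502). Of 39 chemokines and cytokines, 6 were called higher and 0 lower. Beside Il24 and Ccl21 these were Ccl19, which shares its receptor with Ccl21 (1.89), the T cell chemokine Ccl5 (1.88), Ltb, lymphotoxin beta (1.84), and Il1rn, the interleukin 1 receptor antagonist (1.40). Ltb read 512.4, 490.2, 470.9 and 517.1 on CR arrays, against 123.3, 161.4, 142.2 and 133.2 on young arrays. Ccl2, a monocyte chemokine, differed by 1.85 without a call, and Il1b and Il33 by -0.31 and -0.66.

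Of the 52 called genes named by rule, 11 lost their call under array median scaling, with adjusted p between 0.0505 and 0.1004, and none changed direction. Those 11 were C1qb, C2, Casp12, Ccl19, Gpnmb, Havcr1, Klrd1, Mmp7, Prf1, Psmb9 and Tnc. The medians of the myeloid, T cell and B cell lists stayed above 0 there, at 0.89, 1.23 and 1.81, and those of injury and matrix were 0.47 and 0.48. Those of MHC class II and the interferon response were 0.37 and 0.44, against 1.12 and 0.74 with quantile normalisation.

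Genes that mark kidney cells were not called. Defining genes of the podocyte (Nphs1), the proximal tubule (Slc34a1, Slc5a2, Lrp2), the loop (Umod, Slc12a1), the distal tubule (Slc12a3) and the collecting duct (Aqp2) were all above background in both groups, and the 7 of these with a measurable difference stood between 0.04 and 0.52. Lrp2, megalin, read 22628 to 24410 on CR arrays and 21122 to 25342 on young arrays. Slc34a1, the phosphate transporter, was saturated wherever it was measured in both groups and has no fold. Aqp2, the vasopressin-regulated water channel, showed the young samples apart, with 360.5, 500.2, 290.8 and 509.6 on CR arrays, against 159.9, 136.2, 469.3 and 613.2 on young arrays. Under array median scaling the differences of Umod, Slc12a3, Slc5a2, Nphs1, Slc12a1 and Lrp2 turned negative, between -0.75 and -0.10.

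Transporters of the proximal tubule held 1 call. Of 22 apical transporters 0 were called, 10 (45.5%, against 23.8% of all genes) had all CR arrays below all young arrays and 0 all above, and the median was -0.26, or -0.78 under array median scaling. Slc23a1, a vitamin C transporter, read 1153, 1182 and 1072 on the 3 CR arrays that measured it, against 2316, 1997, 3083 and 3109 on young arrays (-1.17 ± 0.23, adjusted p = 0.0883). Slc22a4 (-1.07), the sodium-hydrogen exchanger Slc9a3 (-0.78) and the neutral amino acid transporter Slc6a18 (-0.74) also had no overlap. Of 17 basolateral transporters 1 was called lower, Slco1a1, which the list holds although rat studies place it at the brush border. Slc22a2, the organic cation transporter OCT2, had 3573, 4117, 3493 and 4250 on CR arrays, against 9786, 9273, 10936 and 11877 on young arrays, without a call (-1.44 ± 0.19, adjusted p = 0.0550). Slc22a7, an organic anion transporter, differed by 1.28 in the other direction, without overlap. Of 22 genes of apical endocytosis and the brush border 0 were called and 11 had all CR arrays below; Amn, the partner of cubilin, differed by -1.32 and Cubn itself by 1.002. Of 30 collecting duct genes 0 were called and 16 (53.3%) had all CR arrays below, with a range of -0.76 (Aqp4) to 0.58 (Slc26a4).

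Genes that depend on sex steroids or growth hormone in rat liver and kidney had a median of -0.61 over 21 tested members. This was the lowest of the 38 lists with quantile normalisation; under array median scaling it was -0.89, and those of gluconeogenesis and fatty acid oxidation were lower. Besides Slco1a1 below and Akr1b7 above, no other member's representing probe was called, and 12 (57.1%) had all CR arrays below all young arrays. Cyp2c11, the male-specific cytochrome P450 of rat liver, was above background on all 4 young arrays, at 123.7, 110.0, 373.1 and 376.1, and on no CR array, at 9.40 to 18.2 (adjusted p = 0.0653). Cyp2d4 (-2.20), Rgn (regucalcin, -2.17) and the prolactin receptor Prlr (-1.74) were likewise without overlap. Hsd3b2, a steroid dehydrogenase, gave different values by probe: the probe that represents it differed by -0.88 without a call, and another, above background on no CR array, at 8.95 to 13.2, and on all young arrays, at 158.0 to 454.4, was called, at least 14.6-fold lower in CR kidney (adjusted p = 0.0397). That second probe was singled out after its value was seen.

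Among 25 glucocorticoid receptor targets 1 was called, Bcl6, and 12 (48.0%) had all CR arrays below all young arrays. Slc25a25, a mitochondrial ATP-magnesium carrier, read 506.0, 531.8, 529.1 and 493.3 on CR arrays, against 3827, 4025, 2058 and 2126 on young arrays (-2.48 ± 0.33, adjusted p = 0.0551). Fkbp4 (-0.96), the clock gene Per1 (-0.89), Dusp1 (-0.70) and Sgk1 (-0.62) had no overlap, and Lcn2, which is also an injury gene, stood at 2.06. Of 19 clock genes 0 were called, 11 (57.9%) had all CR arrays below and 2 all above, with Per1 at the bottom and the kinase Csnk1d at the top (1.25). The labels do not give the hour at which the kidneys were taken.

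In the list of renin, angiotensin and vasoactive genes, 2 of 33 tested genes were called higher and 1 lower. These are Pnoc, Cma1 (chymase 1, a mast cell protease that forms angiotensin II, at least 2.01-fold higher and above background on no young array) and Gucy1b2. Cma1 read 7.60, 36.3, 24.5 and 7.60 on young arrays, so the arrays averaged to each young sample lay apart. Its call was lost when any young array was left out and with a floor 4 times higher. It was also lost with the joined sample as a random block and with slide series as a fixed block. The other subunits of soluble guanylate cyclase stood opposite to Gucy1b2: Gucy1b1 read 747.1 to 866.6 on CR arrays against 234.8 to 518.3 on young arrays (1.19) and Gucy1a1 differed by 0.61, both without overlap and without a call. Ace, the converting enzyme, differed by -0.90 and Agtr1a, its product's receptor, by -0.46. Of 22 vitamin D, calcium and phosphate genes only Gc was called. S100g, the calcium binding protein calbindin D9k, which vitamin D induces, read 73.5, 67.3, 69.3 and 56.5 on CR arrays, against 222.4, 291.9, 134.9 and 137.0 on young arrays (-1.49 ± 0.34, adjusted p = 0.107). The vitamin D receptor Vdr differed by -0.88, the calcium channel Trpv6 by 1.30 and Kl (klotho) by -0.34. Of 39 genes of insulin, IGF and Klotho signalling 0 were called, 8 lay all above and 8 all below, and the insulin receptor substrate Irs1 (-1.06) and the insulin receptor Insr (-0.90) were among those below.

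Metabolic groups held 0 or 1 call each, near the rate of all genes, of which 1.05% were called higher and 0.322% lower. All CR arrays lay below all young arrays for 23.8% of all genes. Of 52 genes of fatty acid oxidation and ketogenesis 0 were called and 22 (42.3%) had all CR arrays below all young arrays. Acot12, an acetyl-CoA hydrolase, read 73.6, 75.6, 76.3 and 79.0 on CR arrays, against 390.7, 395.9, 228.5 and 205.3 on young arrays (-1.94 ± 0.32, adjusted p = 0.0725). Ppara, a nuclear receptor that activates fatty acid oxidation genes, differed by -1.18 and the coactivator Ppargc1a by -1.12, while Ucp2, a mitochondrial carrier, differed by 1.495. Of 38 genes of gluconeogenesis and amino acid breakdown 0 were called, 17 (44.7%) had all CR arrays below, and the span was narrow, from -0.88 (Mdh1) to 1.12 (Fah); Pck1, which commits carbon to glucose, differed by -0.62. Of 39 genes of cholesterol and fatty acid synthesis 1 was called, the desaturase Scd, above background on no young array and at least 1.59-fold higher in CR kidney, and 16 (41.0%) had all CR arrays below. Of 57 oxidative phosphorylation genes 0 were called, with 3 all above and 10 all below and a median of -0.06 that was -0.84 under array median scaling. Of 46 antioxidant and glutathione genes 0 were called; Hmox1, heme oxygenase 1, differed by 1.74 and Nox4, the renal NADPH oxidase, by -0.83.

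As a list, ribosomal protein genes differed by a median of only -0.12 between the 2 young samples (log2, arrays 1 and 2 minus arrays 3 and 4). Rpsa, the uncalled member with the largest difference, is not typical of the list in this. Of 46 tested, 0 were called and 32 (69.6%) had all CR arrays above all young arrays, with a median of 0.44 that turned to -0.27 under array median scaling. Rpsa read 6392, 5512, 4685 and 4038 on CR arrays, against 594.9, 577.2, 2977 and 3433 on young arrays, with the young samples far apart and the arrays within each close (1.89 ± 0.81, adjusted p = 0.247). Hsp90ab1, a cytosolic chaperone, had the same shape, 5254 to 5763 on CR arrays against 1281, 1306, 3908 and 4311 on young arrays. Of 38 chaperone genes 0 were called.

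Of 45 cell cycle and proliferation genes 1 was called, in the lower direction, and 23 (51.1%) had all CR arrays above all young arrays. The called one is Melk, a mitotic kinase, with 368.4, 421.0, 432.5 and 492.1 on CR arrays, against 1396, 1265, 1421 and 1376 on young arrays (-1.68 ± 0.17, adjusted p = 0.0397), and a second Melk probe was called as well (-1.99). The replication helicase subunit Mcm4 differed by 1.66 without a call. The list does not hold every gene of this kind. Outside it, and picked out after their values were seen, Uhrf1 (2.61), Pclaf (1.38) and Dlgap5 (1.30) were called higher and Kifc1 (-1.54) lower. Of 41 cell cycle inhibitors, p53 targets and apoptosis genes, 2 were called higher: Cdkn2b, which encodes the inhibitor p15, at 132.9 to 154.3 on CR arrays against 25.2 to 44.4 on the 3 young arrays that measured it (2.21 ± 0.25), and Casp12, an inflammatory caspase (1.52 ± 0.17). Bax, a proapoptotic p53 target, differed by 1.82 with the young samples apart (301.8, 309.1, 293.7 and 282.9 on CR arrays, against 41.0, 35.2, 184.2 and 188.5 on young arrays).

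Other tissues that a dissection could carry along were looked at through their markers. Of 14 adipocyte genes 1 was called, Car3, and 7 had all CR arrays below; the summed intensity of the list was 28970 to 29950 on CR arrays and 39020 to 52750 on young arrays. The defining adipocyte genes Adipoq and Cidec differed by -0.38 and -1.76, and Cfd, adipsin, by 2.36, none of them called. Of 14 skeletal muscle genes 1 was called, the slow troponin Tnni1, at 438.7 to 554.4 on CR arrays against 139.6 to 149.2 on young arrays (1.79), while Tnnc2, the fast troponin C, differed by -1.34 and Acta1 by 0.30; the summed intensity was 5070 to 5847 on CR arrays and 5637 to 6230 on young arrays. Of 7 adrenal, 3 red cell and 3 urothelial genes tested, 0 were called. Of 34 endothelial genes 0 were called and 11 (32.4%) had all CR arrays above, among them the adhesion molecules Vcam1 (1.39) and Icam1 (1.02), while the pan-endothelial Pecam1 stood at -0.08. The lymphatic marker Pdpn was above background on no young array and has only a bound. Of 29 glomerular genes 0 were called, and Pdgfrb, a receptor of mesangial cells and pericytes, differed by 1.18. Of 26 loop and distal tubule genes 0 were called. How far a different mix of cells accounts for any of the differences above was not tested.

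**Figure D4:**
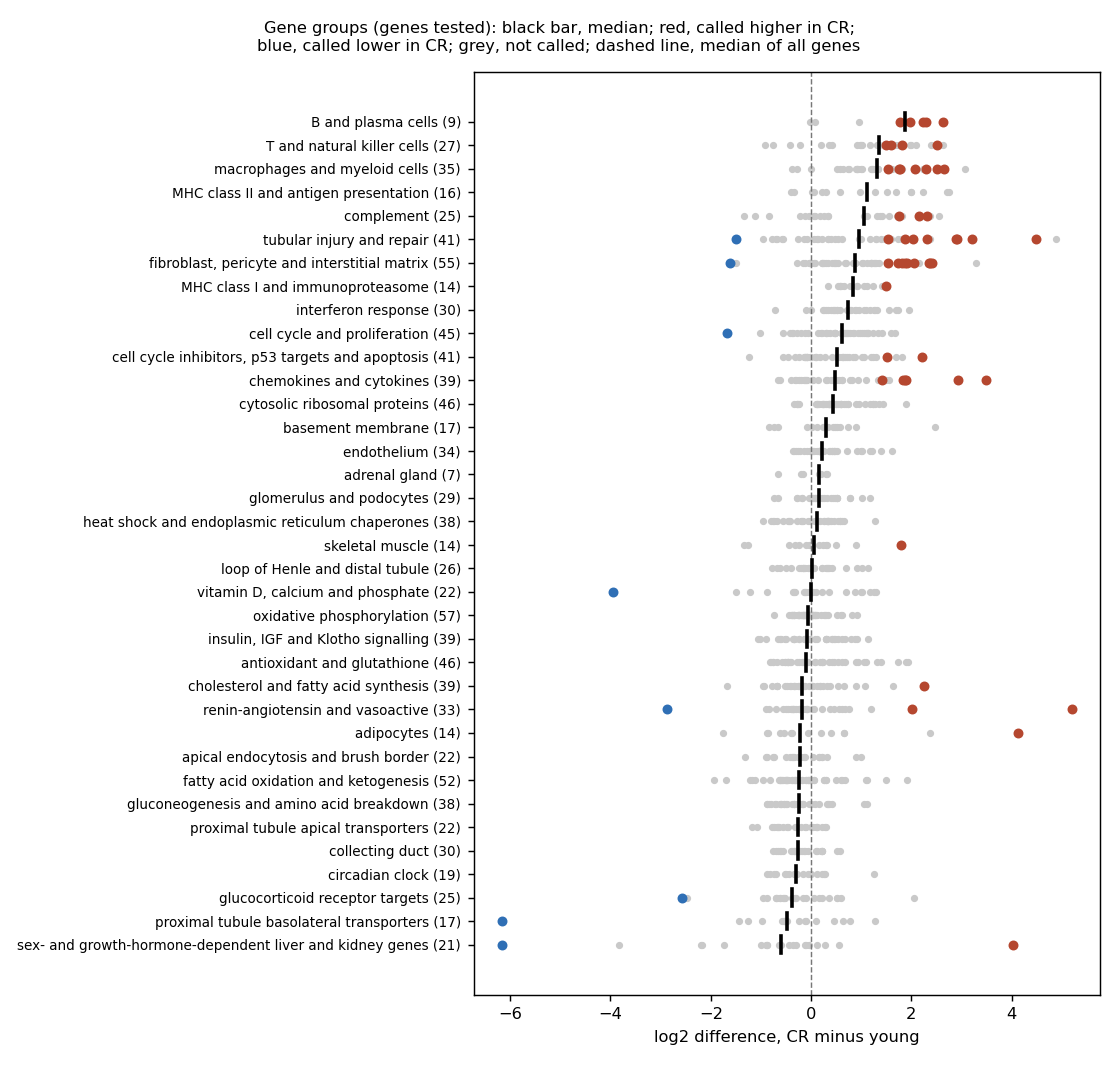
Log2 difference, CR minus young (horizontal axis), of every tested member of the 36 gene groups with at least 5 tested members, ordered by their median (black bar). Red and blue points are genes called higher and lower in CR kidney, grey points were not called, and the dashed line is the median of all genes, -0.01. With quantile normalisation, the myeloid, T cell and B cell groups have the highest medians, 1.32 to 1.87, and the sex- and growth-hormone-dependent group the lowest, -0.61; of the B cell group only 9 genes were tested, 2 of them above background on no young array.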

How the data were processed

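Per the file headers, CodeLink Expression Analysis 4.1.0.29054 made the deposited array reports; for every spot they hold an intensity with the background subtracted, its value after scaling to the array median, and a quality flag. In the deposited value table each entry is a ratio of the median-scaled intensity to a constant of the probe, as set against the reports, and how the authors chose that constant is not stated. The background-subtracted intensity of gene probes was used. Contaminated, irregular and masked spots were missing and saturated spots kept. The 8 arrays were quantile normalised, floored at 7.6 (2.93 on the log2 scale; the median over arrays of the normalised level of each array's median negative control spot, of 256) and put on a log2 scale. Arrays of a group within the repeat-spot limit were averaged, which gave 2 samples a group; the labels' replicate numbers paired no samples. CR minus young was tested two-sided with lmFit and eBayes of limma 3.58.1 in R 4.3.3, with no covariate and Benjamini-Hochberg adjustment over all 24739 probes at 0.05. The code was tested on simulated data in which all samples had the same spread. The young samples here differed more than the CR samples, so that simulation cannot show how the unequal spread affects the calls. A probe above background on no array of a group, or saturated on all of them, gives a bound. Probes above background on no array of a group met the filter only through the other group, and the list counts include them.

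Symbols were taken from the annotation of the platform (16878 probes) or through RefSeq accessions (183); 16606 had no symbol and 182 several, and only probes with 1 symbol were named. A gene in a list is represented by its tested probe with the highest mean. Named by rule were the 12 largest called rises and falls without overlap (1 probe a gene, bounds ranked as bounds), up to 3 called members of each list and 1 in the other direction, the kidney marker genes, and Havcr1, Mmp7 and Cldn7. Uncalled genes given with array values are, for each list, the one with the largest difference and no overlap; this rule was added after the data were seen. Members and the 38 lists were chosen with earlier results of these data known, and no list was tested as a set. The number of arrays and signal over background limit the precision. Some listed genes are not reported here. Alternatives are given in the closing section.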

Additional observations from a re-analysis of the deposited data

Results flagged for a closer look

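In 4 of 117 groups of 4 arrays examined, covering 62 genes, 1 array stood apart from the other 3 by Dixon's criterion; chance alone gives about 1 in 20, or 5%. Values are log2 normalised intensities. Tnn read 7.997 on CR array 3, against 7.78 to 7.82 on the other CR arrays. Reg3g read 7.16 on CR array 4, against 7.37 to 7.39 on the other CR arrays. Ms4a1 read 3.18 on young array 2, while the other young arrays lay at the floor of 2.93. Clu read 10.24 on young array 4, against 10.14 to 10.15 on the other young arrays. Each of these 4 genes was called, with its CR arrays all above its young arrays.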

How the results depend on the processing

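The count of calls, 220 higher and 70 lower in CR kidney, depended strongly on what counts as a sample. It was 3845 higher and 5223 lower with every array a sample, 1544 and 1847 with the joined sample as a random block, and, again with every array a sample, 5015 and 6241 with all 12 arrays, 2038 and 2894 with slide series as a fixed block, and 4573 and 5961 with it as a random block. The replicate block, also over arrays, gave 2900 and 3819; samples of the same number did not deviate together (correlations 0.059, -0.184, -0.197 and 0.164), so the numbers share only a name. Calls higher in CR made up 75.9% of calls, against 42.4% with every array a sample. Array median scaling gave 123 higher, the deposited median-scaled intensity 124, and with the deposited value table there were 102 higher and 43 lower. Without a filter on dim probes there were 27 and 11, and with probes above background on all 8 arrays 459 and 367. A floor 4 times higher gave 236 and 82, and the calls of Cma1, Mrc1, Ms4a1, Scd and Tcp11x2 were lost. With contaminated and irregular spots kept there were 226 and 68, and the calls of Bcl6 and Cdkn2b were lost. Leaving out 1 array gave 91 to 283 higher and 31 to 103 lower, with the fewest without young array 1; without young array 2 there were 45 lower and without young array 3 there were 42. Of the named genes' calls, 52 were lost without either CR sample, 38 without the filter on dim probes, 16 with the deposited value table, 22 without young array 1, 11 without young array 3 and 6 without young array 2. Without either CR sample 0 were called in each direction, without young arrays 1 and 2 3155 higher and 2846 lower, and without young arrays 3 and 4 6227 and 6424; the lone sample is then assumed to vary like the other group. The cause of these changes was not tested.

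The 52 called named genes kept their direction under every alternative in which they were tested. Differences that changed sign were of uncalled marker genes. Under array median scaling, the deposited median-scaled intensity and the deposited value table, in that order, they were -0.59, -0.57 and -0.57 for Umod, -0.59, -0.58 and -0.58 for Slc12a3, -0.53, -0.52 and -0.52 for Slc5a2, -0.098, -0.084 and -0.084 for Nphs1, -0.32, -0.30 and -0.30 for Slc12a1, and -0.75, -0.74 and -0.74 for Lrp2. Without CR arrays 1 and 3 Nphs1 was -0.10, and without CR arrays 2 and 4 Slc12a1 was -0.078. Without young arrays 1 and 2 Aqp2 was -0.41, Slc5a2 -0.086, Slc12a1 -0.37 and Lrp2 -0.024. A normexp background correction was not run, since the reports give no separate spot mean and local background.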

Other observations

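Some called genes outside the lists were picked out after their values were seen. F2, prothrombin, read 426.1, 365.5, 412.8 and 355.2 on CR arrays, against 1229, 1201, 1301 and 1177 on young arrays. Afm, afamin, a plasma protein of the same family as Gc, differed by -1.93, and Asgr1, a subunit of the asialoglycoprotein receptor, by -1.87. All 3 are known from liver, as are Lrg1 and Nnmt, which were called in the other direction (1.72 and 2.27). The fructose transporter Slc2a5 differed by -1.70. Each of the 4 genes that fell had all CR arrays below all young arrays.

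Among the rises, Mcpt1, a mast cell protease like Cma1, was above background on all 4 CR arrays and on no young array, at least 7.39-fold higher in CR kidney. Slpi, a secreted inhibitor of leukocyte proteases, differed by 2.59, the transcription factors Runx1 and Etv4 by 2.20 and 2.66, and Tnfrsf12a, the TWEAK receptor, by 1.79. No explanation of these values was tested.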
